A study of Drosophila melanogaster with 15 samples.

Results

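Ecdysone receptor and response genes are here 10 genes, picked out of the files by their identifiers: EcR (CG1765), usp (CG4380), br (CG11491), Eip74EF (CG32180), Eip75B (CG8127), Eip71CD (CG7266), Hr46 (CG33183), ftz-f1 (CG4059), Eip93F (CG18389) and Ptth (CG13687). They account for 36 of the 22353 transcripts listed in the deposited files, and for 10 of 15139 genes. Of these genes, 9 had a mean level of at least 1 RPKM, the reads of a transcript scaled by its length and by the library total, over the libraries and could be compared with the 7485 genes above that level. Hr46 did not reach it.

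The messenger RNA of SL2, a Drosophila melanogaster cell line of male origin, was sequenced after 6 days of RNA interference (RNAi) at 25 °C. There was 1 library each for cells given control RNAi, RNAi against CLAMP or RNAi against MSL2. CLAMP is a zinc finger protein that binds GA-rich DNA, and MSL2 is a protein of the dosage compensation complex of the male X chromosome. The labels name no hormone treatment of any library, and they do not name the sequence against which the control RNAi was directed. All 3 libraries share the cell line and the RNAi procedure, and both knockdown libraries are compared with the same control library. The other 12 samples of the series, CLAMP immunoprecipitations and their inputs from SL2 and the female line Kc, were not analysed here.

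Ecdysone is the steroid hormone that times molting and metamorphosis in insects. Its active form binds a dimer of the nuclear receptors EcR and Ultraspiracle (usp), which then switches on early regulatory genes such as br, Eip74EF and Eip75B. Their products act on later genes, among them the nuclear receptors Hr46 and ftz-f1 and the transcription factor gene Eip93F. Ptth lies upstream of the hormone: it encodes a brain peptide that stimulates the prothoracic gland to make ecdysone. Cultured Drosophila cells of embryonic origin are known to express the receptor and to respond to added ecdysone.

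Each group was 1 library, so the differences below rest on no replicates and carry no p-values. "Higher" and "lower" describe these libraries. Ratios of reads are scaled by the library totals and carry exact 95% intervals (Clopper-Pearson) that cover counting error only. Library totals ran from 67844405 to 68301197. Reads in exons shared by several isoforms appear to enter the count of each of them, since transcript counts sum to more than the library total, so isoforms of 1 gene are not independent measurements. Each gene is represented by its transcript with the most reads, and isoforms are described apart. In bulk RNA, fewer cells of a type and less RNA per cell cannot be told apart.

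The targeted transcripts were lower in their own libraries. Clamp had an RPKM of 66.2 in control and 19.8 after CLAMP RNAi, and msl-2 had 19.8 in control and 5.16 after MSL2 RNAi. Of 9 hemocyte markers, the blood cell genes that SL2 cells are known to express, all 9 passed the level filter. The summed RPKM of this list was 4726 (control), 6991 (CLAMP RNAi) and 5538 (MSL2 RNAi). A few abundant genes carry that sum. In each knockdown library 3 of the 9 were at least 1.5-fold higher than control and 0 were lower, where 1.5% and 3.86% of all tested genes were higher and lower after CLAMP RNAi and 2.53% and 5.32% after MSL2 RNAi. Pxn, a peroxidase gene of the matrix, had an RPKM of 326 (control), 860 (CLAMP RNAi) and 564 (MSL2 RNAi), while Tig had 120.1, 123 and 119. The part of these markers in the results below was not tested. Of 5 prothoracic gland markers, 0 passed the filter in these cells. Their summed RPKM was between 0.118 and 0.124, and dib was at 0 reads in every library. Fat body and salivary gland markers were likewise low, with summed RPKM of at most 0.354 and 0.0265. Of 3 muscle markers, the X-linked up passed the filter, with an RPKM of 2.18 (control), 2.27 (CLAMP RNAi) and 2.00 (MSL2 RNAi). Mhc and wupA did not pass.

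The ecdysone genes covered a wide range of levels, in nearly the same order in each library. In the control library the order of RPKM from high to low was Eip75B, usp, Eip71CD, ftz-f1, EcR, br, Eip74EF, Ptth, Eip93F and Hr46. None of the 9 neighbouring pairs in that order had overlapping counting intervals. After CLAMP RNAi, Eip74EF stood above br, and the intervals of br and Ptth overlapped, at 5.36 and 5.34. After MSL2 RNAi, Ptth had moved from rank 8 to rank 5, with an RPKM of 11.8, and overlapped EcR at 11.7. Levels of genes with several isoforms depend on the isoform that stands for the gene, and so does this order. In control the RPKM of the isoforms spanned 43.5 to 75.04 for Eip75B, 4.58 to 8.84 for br and 2.41 to 5.35 for Eip74EF. The range of Eip75B thus took in usp at 58.4, the ranges of br and Eip74EF overlapped, and that of Eip74EF took in Ptth at 4.002.

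**Figure D1:**
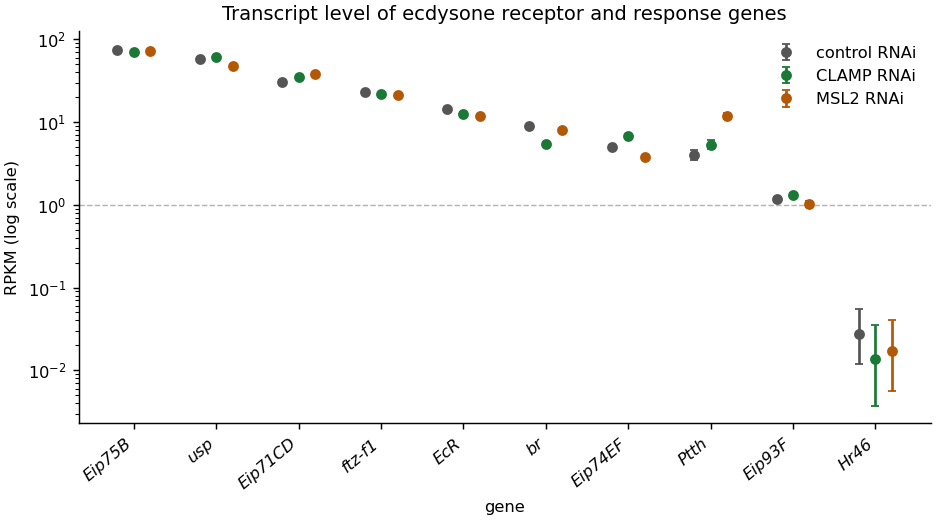
RPKM (log scale) of the representative transcript of each ecdysone gene in the 3 libraries, with 95% Poisson intervals of the read count as bars; the dashed line marks an RPKM of 1. Eip75B was highest in every library, Ptth reached 11.8 only after MSL2 RNAi against 4.002 in control, and Hr46 stayed below 0.03.

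Of the 9 genes above the level filter, few stood far from control. Genes were compared on the log2 scale after adding 0.1 to each RPKM, which makes ratios of low genes smaller than they are. After CLAMP RNAi, 1 of the 9 genes (br) was at least 1.5-fold lower and 0 were 1.5-fold higher, where 3.86% of all tested genes were 1.5-fold lower and 1.5% were 1.5-fold higher. The median log2 ratio of the 9 was 0.05, and that of all tested genes was −0.06. After MSL2 RNAi, 0 of the 9 were at least 1.5-fold lower and 1 (Ptth) was 1.5-fold higher, where 5.32% and 2.53% of all tested genes were lower and higher. The median of the 9 was −0.15, beside −0.02 for all tested genes. Ptth was also past 2-fold in that comparison, a size reached upward by 0.588% of tested genes. Counts of 0 or 1 among 9 genes are too few to be a result about the list.

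**Figure D2:**
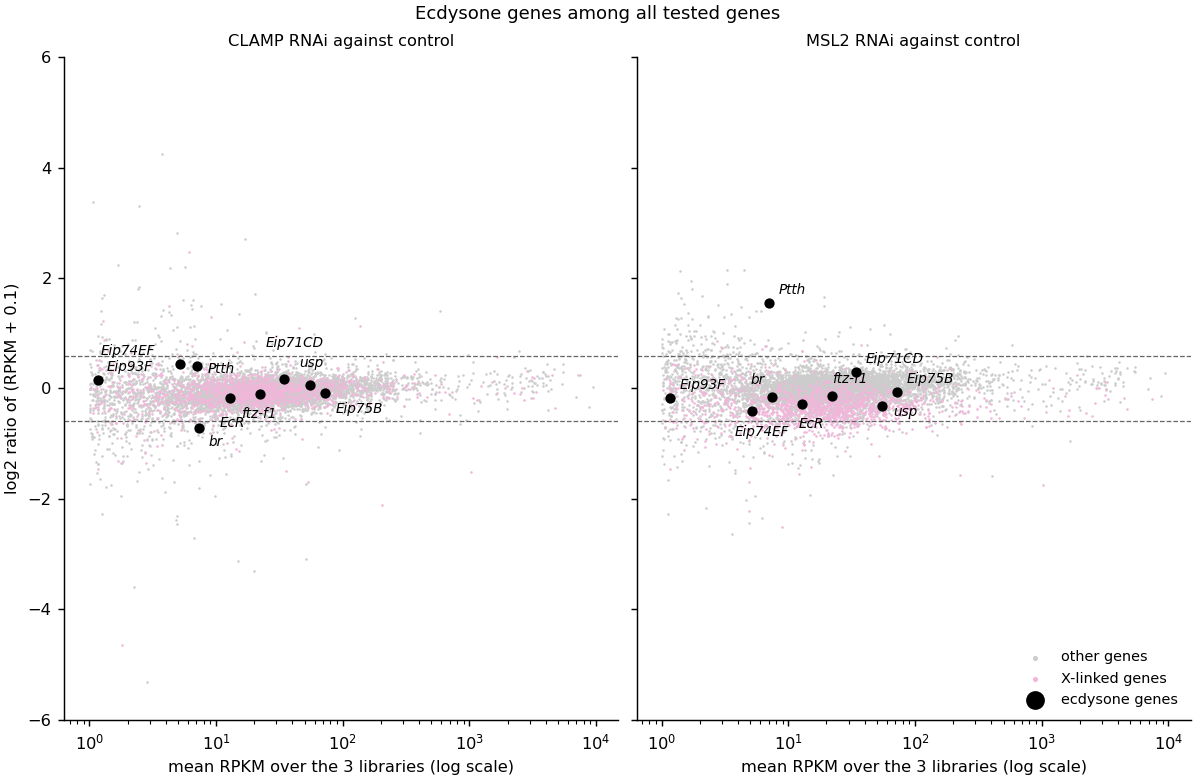
Log2 ratio of (RPKM + 0.1) against control plotted over mean RPKM (log scale) for all 7485 tested genes, with X-linked genes in pink and the 9 ecdysone genes as black points; dashed lines mark 1.5-fold. On the left br lies below the lower line, at −0.71, and on the right Ptth lies above the upper one, at 1.54.

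EcR encodes the hormone-binding subunit of the receptor. Its most counted isoform, CG1765-RB, had an RPKM of 14.3 (control), 12.7 (CLAMP RNAi) and 11.7 (MSL2 RNAi), from 5435, 4834 and 4445 reads. Both knockdown libraries were thus slightly below control. The scaled reads after CLAMP RNAi were 0.886 times those of control (95% interval 0.852 to 0.921), and those after MSL2 RNAi were 0.820 (0.788 to 0.853), which exceeds counting error but stays within 1.5-fold. Against the major autosomal arms, with medians of −0.05 for CLAMP RNAi and 0.03 for MSL2 RNAi, the log2 ratios of EcR lay at −0.12 and −0.31 relative to those medians. All 5 annotated isoforms gave nearly the same ratios, between 0.880 and 0.897 after CLAMP RNAi and between 0.807 and 0.833 after MSL2 RNAi. CG1765-RB was counted with 2033 reads more than CG1765-RA in control, 1773 more after CLAMP RNAi and 1622 more after MSL2 RNAi. This surplus was 37.4%, 36.7% and 36.5% of its reads. The surplus of CG1765-RC over CG1765-RA was 796, 648 and 556 reads, or 19.0%, 17.5% and 16.5% of CG1765-RC.

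usp, on the X chromosome, encodes the partner subunit, the fly relative of vertebrate retinoid X receptors. The single annotated transcript, CG4380-RA, had an RPKM of 58.4 (control), 60.6 (CLAMP RNAi) and 47.0 (MSL2 RNAi). The MSL2 RNAi library was the low one. The scaled reads after CLAMP RNAi were 1.04 times those of control (95% interval 1.01 to 1.07), and those after MSL2 RNAi were 0.805 (0.782 to 0.830). Its log2 ratio of −0.31 after MSL2 RNAi lay close to the median of 1292 X-linked genes, −0.33, and 53.6% of X-linked genes had a lower one. In the annotation table usp overlaps Actn, the alpha-actinin gene, whose log2 ratio after MSL2 RNAi was −0.40, and CG4313, whose log2 ratio was 0.25. The use of strand in counting was not stated, so reads of overlapping genes cannot be told apart.

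After CLAMP RNAi EcR was thus below control and usp slightly above it, and after MSL2 RNAi both receptor genes were below control. The levels of usp and EcR, on the RPKM scale, stood at 58.4 and 14.3 in control, and usp was the higher of them in every library.

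**Figure D3:**
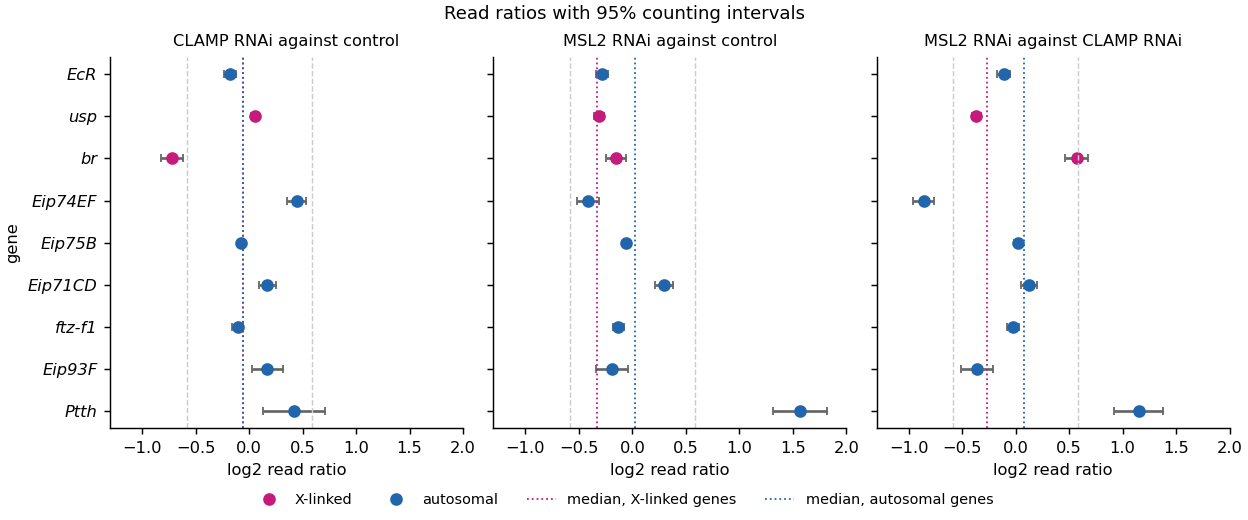
Log2 read ratios of the 9 ecdysone genes above the level filter in each pair of libraries, with 95% counting intervals; dotted lines are the medians of X-linked and autosomal genes and dashed lines mark 1.5-fold. br is farthest left after CLAMP RNAi, usp lies on the X-linked median after MSL2 RNAi, and Eip74EF and Ptth lie beyond 1.5-fold in opposite directions between the knockdown libraries.

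br, also X-linked, encodes the Broad zinc finger proteins, early regulators that act at the onset of metamorphosis. Among the 9 genes above the level filter it had the lowest ratio after CLAMP RNAi. The most counted isoform, CG11491-RA, had 1974 reads (control), 1202 (CLAMP RNAi) and 1774 (MSL2 RNAi), or an RPKM of 8.84, 5.36 and 7.96. The CLAMP RNAi library was well below both others. The scaled reads after CLAMP RNAi were 0.607 times those of control (95% interval 0.564 to 0.652), and those after MSL2 RNAi were 0.901 (0.845 to 0.961). After CLAMP RNAi, 2.32% of X-linked genes had a lower log2 ratio than br, and 3.25% of X-linked genes were at least 1.5-fold lower. After MSL2 RNAi the log2 ratio of −0.15 was above the X-linked median of −0.33, and 76.8% of X-linked genes were lower. That placement depends on the isoform, since the other 8 isoforms lay between −0.35 and −0.24, and CG11491-RJ was below the X-linked median.

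Between the knockdown libraries, br was 1.49 times as high after MSL2 RNAi as after CLAMP RNAi (1.38 to 1.60), just short of the 1.5-fold rule. The log2 ratio was 0.56, where the median of X-linked genes was −0.27, and 98.4% of X-linked genes had a lower one. This comparison does not use the control library. In the annotation table br overlaps Mur2B, which had 233 reads (control), 410 (CLAMP RNAi) and 284 (MSL2 RNAi), and so was highest where br was lowest. The mean RPKM of Mur2B was 0.842, below the level filter.

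All 9 annotated isoforms of br were at least 1.5-fold lower after CLAMP RNAi, where 3.41% of all 12842 transcripts above the level filter were. None of them reached 2-fold, and neither did br as a gene, where 1.16% of tested genes did. They were the only ones so among the 32 ecdysone transcripts above the filter, and reads counted for several of them are not independent. Their log2 ratios ranged from −0.86 for CG11491-RJ to −0.71 for CG11491-RA. After MSL2 RNAi the range was −0.35 to −0.15, with the same isoforms at its ends. CG11491-RA and CG11491-RJ are the most counted br isoforms, and they separated between libraries. CG11491-RJ had 1786 reads (control), 976 (CLAMP RNAi) and 1388 (MSL2 RNAi). The surplus of CG11491-RA over CG11491-RJ was 188 reads (control), 226 (CLAMP RNAi) and 386 (MSL2 RNAi), or 9.52%, 18.8% and 21.8% of the CG11491-RA reads. Conversely, the surplus of CG11491-RJ over CG11491-RE was 409 reads in control and 155 and 232 in the knockdown libraries. Such a surplus is a net difference and cannot be assigned to 1 exon, since each isoform may hold reads that the other lacks.

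Eip74EF encodes ETS-domain transcription factors and is another classical early gene. It was higher than control after CLAMP RNAi and lower after MSL2 RNAi. CG32180-RB and CG32180-RD had the same reads, 1729 (control), 2360 (CLAMP RNAi) and 1292 (MSL2 RNAi), and for CG32180-RB these gave an RPKM of 5.02, 6.83 and 3.76. The read ratios were 1.36 (1.28 to 1.45) and 0.749 (0.697 to 0.806), both short of 1.5-fold. After CLAMP RNAi 97.4% of tested genes had a lower log2 ratio, and after MSL2 RNAi 12.1% had. Among genes of the major autosomal arms, to which Eip74EF belongs, these shares were 97.2% and 6.33%. The knockdown libraries differed from each other by more than either did from control, with a read ratio of 0.551 for MSL2 RNAi against CLAMP RNAi (0.515 to 0.590). In that comparison 1 of the 9 ecdysone genes (Eip74EF) was at least 1.5-fold lower and 1 (Ptth) was 1.5-fold higher, where 3.62% and 4.24% of tested genes were. Ptth was also past 2-fold, as 1.66% of tested genes were, and Eip74EF was not past 2-fold, as 1.11% were. All 4 isoforms of Eip74EF were at least 1.5-fold lower, beside 4.74% of transcripts.

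The isoforms of Eip74EF formed a pair of sets. CG32180-RA and CG32180-RC, equal in length and reads, had 982 reads (control), 1446 (CLAMP RNAi) and 824 (MSL2 RNAi). Their read ratios of 1.47 (1.35 to 1.59) and 0.841 (0.766 to 0.924) were above those of the shorter isoforms in both comparisons. The counting intervals of the longer and shorter isoforms overlapped in both. The reads of CG32180-RB beyond those of CG32180-RA numbered 747 (control), 914 (CLAMP RNAi) and 468 (MSL2 RNAi), or 43.2%, 38.7% and 36.2% of CG32180-RB.

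Eip75B encodes a heme-binding nuclear receptor of the early response, and its most counted isoform had the highest RPKM of the ecdysone genes. CG8127-RD had an RPKM of 75.04 (control), 71.1 (CLAMP RNAi) and 72.0 (MSL2 RNAi), above 93.6%, 93.2% and 93.2% of all genes. That rank depends on the isoform. In control CG8127-RA, CG8127-RB and CG8127-RC had an RPKM of 43.5, 55.0 and 45.8, all below the 58.4 of usp. The libraries were close to each other, with read ratios of 0.947 (0.928 to 0.967) and 0.960 (0.940 to 0.979). One isoform, CG8127-RB, was even closer to control, at 0.994 (0.973 to 1.02) and 1.00 (0.984 to 1.03).

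The isoforms of Eip75B did not keep the same balance. CG8127-RA was counted with 1573 reads more than CG8127-RB in control, 852 more after CLAMP RNAi and 840 more after MSL2 RNAi. As a share of CG8127-RA this surplus was 8.47% in control and 4.79% and 4.70% in the knockdown libraries. Scaled by library totals, it was 0.540 and 0.536 of the control surplus, although the whole isoform was 0.955 and 0.965 of control. CG8127-RC and CG8127-RD gave the same picture, with surpluses over CG8127-RB of 1596, 858 and 848 reads and of 2158, 1259 and 1295 reads. Both knockdown values rest on the same control library. MSL2 RNAi against CLAMP RNAi, which leaves it out, gave a read ratio of 1.01 for each of the 4 isoforms.

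**Figure D4:**
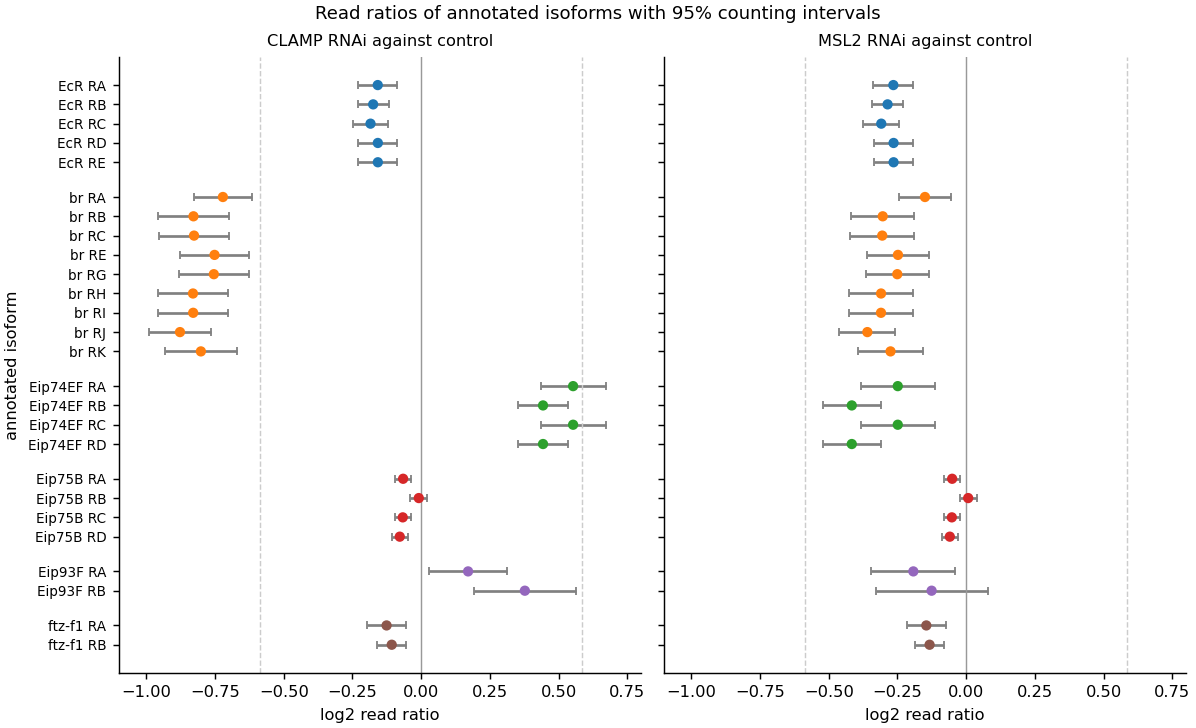
Log2 read ratios against control of each annotated isoform of 6 ecdysone genes, with 95% counting intervals; the solid line is no difference and dashed lines mark 1.5-fold. The 9 br isoforms lie left of the 1.5-fold line after CLAMP RNAi, and the Eip74EF isoforms lie right of 0 after CLAMP RNAi and left of it after MSL2 RNAi.

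Eip71CD, listed in the current annotation as MsrA, encodes a methionine sulfoxide reductase, an enzyme that repairs oxidized methionine, and was found as an ecdysone-induced protein of cultured cells. CG7266-RC had an RPKM of 30.7 (control), 34.6 (CLAMP RNAi) and 37.7 (MSL2 RNAi), so both knockdown libraries were above control. The read ratios were 1.12 (1.06 to 1.19) and 1.23 (1.16 to 1.30). The 4 isoforms differed by few reads, and their ratios after MSL2 RNAi lay between 1.22 and 1.23.

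Of the later nuclear receptor genes, ftz-f1 was well detected and Hr46 hardly at all. ftz-f1, a competence factor between hormone pulses, had 6213 reads for CG4059-RB (control), 5791 (CLAMP RNAi) and 5649 (MSL2 RNAi). Its RPKM was 23.3, 21.7 and 21.3, and the read ratios were 0.928 (0.896 to 0.962) and 0.912 (0.879 to 0.945). The shorter CG4059-RA, with an RPKM of 15.2 in control, gave 0.916 and 0.904. Hr46, which encodes the receptor Hr3 that activates ftz-f1 in the animal, had 8 reads for CG33183-RA (control), 4 (CLAMP RNAi) and 5 (MSL2 RNAi). Its other 3 isoforms had between 4 and 6 reads in each library. The read ratio of 0.498 after CLAMP RNAi had a counting interval of 0.110 to 1.86, so a difference was not detectable at this depth.

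Eip93F encodes a transcription factor of the late, adult-forming stage and was near the level filter. CG18389-RA had an RPKM of 1.17 (control), 1.32 (CLAMP RNAi) and 1.02 (MSL2 RNAi), from 762, 861 and 665 reads. It was highest after CLAMP RNAi and lowest after MSL2 RNAi, as Eip74EF and usp were. The read ratios were 1.13 (1.02 to 1.24) and 0.875 (0.788 to 0.972). The shorter CG18389-RB had 418, 545 and 382 reads, with a ratio of 1.30 (1.14 to 1.48) after CLAMP RNAi and 0.916 (0.796 to 1.06) after MSL2 RNAi, where the interval spans 1.

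Ptth had the largest log2 ratio of the 9 genes above the level filter. Its only transcript, CG13687-RA of 639 bases, had 174 reads (control), 233 (CLAMP RNAi) and 513 (MSL2 RNAi), or an RPKM of 4.002, 5.34 and 11.8. The MSL2 RNAi library stood far above both others. The scaled reads after MSL2 RNAi were 2.96 times those of control (95% interval 2.48 to 3.53), and those after CLAMP RNAi were 1.33 (1.09 to 1.63). After MSL2 RNAi 99.9% of tested genes had a lower log2 ratio than the 1.54 of Ptth. MSL2 RNAi against CLAMP RNAi, without the control, gave a read ratio of 2.22 (1.89 to 2.60). In the annotation table Ptth overlaps cold, which had 861 reads (control), 720 (CLAMP RNAi) and 675 (MSL2 RNAi), a difference in the other direction. Its neighbour Ipk2 had a log2 ratio of 0.02 after MSL2 RNAi.

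Ptth is made by brain neurons in the animal, so neuron markers are set beside it. nSyb, the neuronal synaptobrevin gene, had 9, 10 and 9 reads in the control, CLAMP RNAi and MSL2 RNAi libraries, and para, a sodium channel gene, had 6, 4 and 2. The X-linked elav, a neuronal RNA-binding protein gene, was detected, with an RPKM of 8.25 (control), 7.35 (CLAMP RNAi) and 5.41 (MSL2 RNAi), and was thus lowest where Ptth was highest. The log2 ratio of elav after MSL2 RNAi was −0.60, where the median of X-linked genes was −0.33. The summed RPKM of these 3 markers was 8.35, 7.44 and 5.50, almost all of it from elav, so the sum restates that gene. tor, the gene of the Ptth receptor Torso, had between 39 and 51 reads in each library.

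Profiles over the 3 libraries were compared with those of Ptth and EcR. Likeness was measured as the distance between log2 values of RPKM plus 0.1, centred on the mean of each gene, among 7484 other tested genes. Only 2 lay within a distance of 0.2, namely CG34437 and Taf12L, at 0.0321 and 0.0323. CG34437 had an RPKM of 11.1 (control), 14.4 (CLAMP RNAi) and 31.5 (MSL2 RNAi). Taf12L, related to a subunit of the general transcription factor TFIID, had 62, 85 and 184 reads. BaraB, CG3635 and CR41440 followed at distances of 0.209, 0.226 and 0.247, with 31, 77 and 21 reads in control. For BaraB, CG3635 and CR41440 the RPKM was 0.904, 0.819 and 0.776 in control and 2.34, 2.10 and 2.63 after MSL2 RNAi, so they passed the level filter through the MSL2 RNAi library. Around EcR 2369 genes lay within 0.2. With an unscaled distance, a gene with small ratios has more neighbours than one with large ratios, so these numbers restate the sizes of the ratios. The nearest to it were CtsL4, the kinesin genes Klp10A and Klp67A, gd and CG15599, at distances of 0.0051 to 0.0115.

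The rest of the pathway is described by 61 further genes in 4 lists, chosen for their known roles. Most of those expressed were within 1.5-fold of control in both knockdown libraries. Over all tested genes, 3.86% were lower and 1.5% higher by that rule after CLAMP RNAi, and 5.32% and 2.53% after MSL2 RNAi, with medians of −0.06 and −0.02. Between the knockdown libraries 3.62% were lower and 4.24% higher. Counts of 0 to 2 among the 4 to 15 expressed genes of a list are too few to be a result about the list.

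**Figure D5:**
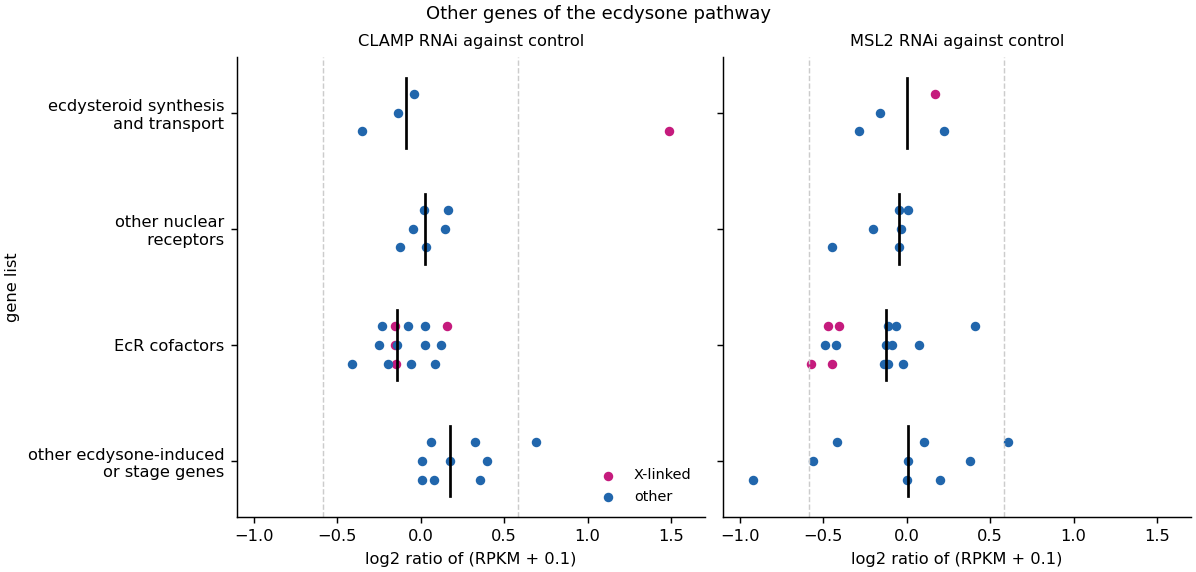
Log2 ratios of (RPKM + 0.1) against control for the members of 4 pathway lists with a mean RPKM of at least 1, with X-linked genes in magenta, list medians as black bars and 1.5-fold as dashed lines. The outlying X-linked point after CLAMP RNAi is Cyp18a1 at 1.49, and the lowest point after MSL2 RNAi is W at −0.92.

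Of the 12 genes of ecdysteroid synthesis and transport, 4 passed the level filter. Oatp74D, the importer that takes ecdysone into cells, had an RPKM of 69.3 (control), 67.5 (CLAMP RNAi) and 62.0 (MSL2 RNAi). Cyp18a1, an X-linked cytochrome P450 gene whose enzyme inactivates ecdysteroids, was the exception in the list, with 480 reads (control), 1387 (CLAMP RNAi) and 541 (MSL2 RNAi). It was the 1 member at least 1.5-fold higher after CLAMP RNAi, at a log2 ratio of 1.49, beside 1.24% of X-linked genes. Its log2 ratio after MSL2 RNAi was 0.17. In MSL2 RNAi against CLAMP RNAi it stood at −1.32, the 1 member at least 1.5-fold lower, beside 3.62% of all tested genes. shd, which encodes the enzyme that converts ecdysone to its active form, had log2 ratios of −0.13 and −0.28, and sro had −0.35 and 0.23 on 59 to 91 reads. The list medians were −0.09 and 0.00. spo, phm, sad, nvd, spok and dib, the other synthesis genes, had from 0 to 80 reads in any library, as did E23 and tor.

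Of 16 other nuclear receptor genes, 6 passed the filter, and 0 of them were 1.5-fold lower or higher in either comparison with control. Their medians were 0.02 for CLAMP RNAi and −0.05 for MSL2 RNAi. Hnf4, a receptor of lipid metabolism, had an RPKM of 39.8 (control), 44.6 (CLAMP RNAi) and 34.7 (MSL2 RNAi). Eip78C, an ecdysone-induced receptor, had 170, 165 and 121 reads, with a log2 ratio of −0.45 after MSL2 RNAi. Hr78 and ERR had log2 ratios of 0.14 and −0.12 after CLAMP RNAi and −0.03 and −0.05 after MSL2 RNAi, and Hr39 had 0.02 and −0.05.

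All 15 genes of EcR cofactors, partners and chaperones passed the filter, and 0 were 1.5-fold lower or higher against control. The list medians were −0.14 for CLAMP RNAi and −0.12 for MSL2 RNAi. The 4 X-linked members were trr, a histone methyltransferase gene, the corepressor gene Smr, and the juvenile hormone receptor genes Met and gce. Their log2 ratios after MSL2 RNAi were −0.57, −0.47, −0.44 and −0.41, all below the X-linked median of −0.33. DOR, an autosomal coactivator gene, stood at −0.49. The chaperone gene Hsc70-4 went the other way and was the highest of the list, at 0.41. Of the 15 genes, 13 lay below the median of the major autosomal arms after MSL2 RNAi. After CLAMP RNAi the largest differences were those of the chaperone gene Hsp83 (−0.41), the nucleosome remodelling gene E(bx) (−0.25), rig (−0.23) and Alien (−0.20). Between the knockdown libraries, Smr was the 1 member of the list at least 1.5-fold lower after MSL2 RNAi, at −0.63.

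Of 18 other ecdysone-induced or stage genes, 9 passed the filter. After CLAMP RNAi 1 of them was at least 1.5-fold higher and 0 were lower, with a list median of 0.18. vri, a bZIP repressor gene of the circadian clock, had 1211 reads (control), 1978 (CLAMP RNAi) and 1393 (MSL2 RNAi). The other high ratios after CLAMP RNAi were those of the small heat shock gene Hsp27 (0.40), W (0.35), which is the cell death gene hid, and ImpL2 (0.32), an insulin-binding protein gene. After MSL2 RNAi 1 of the 9 was at least 1.5-fold lower (W at −0.92) and 1 was higher (Hsp27 at 0.61), and the list median was 0.01. Eip63E, a cyclin-dependent kinase gene, and chinmo, a gene of developmental timing, stood at −0.56 and −0.42. Between the knockdown libraries 2 of the 9 were at least 1.5-fold lower after MSL2 RNAi and 0 were higher. The lower genes were W at −1.27 and Eip63E at −0.74, beside 3.62% of all tested genes. Sgs3 and Fbp1, ecdysone targets of the salivary gland and fat body, had at most 5 reads in any library.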

How the data were processed

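Total RNA of SL2 cells was made into messenger RNA libraries with an Illumina TruSeq protocol, per the labels' protocols. The deposited files list, for each transcript, an RPKM value, a read count, a length in bases and the library total. The deposited RPKM equals the deposited count divided by transcript length and library total, within 1e-06 when recomputed. Counts are whole reads. The submitters' processing notes name Bowtie and dm3. For the counting tool, annotation release and strand, nothing is given in the sources used here. Summed over all transcripts, the control file holds 139678971 reads against a total of 68036170, as when reads of shared exons count for each isoform.

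The transcript with the most reads stood for each gene. Names and arms came from an annotation table of Release 6, in which 13783 genes were found by locus tag, 749 by an unambiguous older name and 607 not at all. That build differs from dm3, so no coordinates are given. Log2 ratios used RPKM plus 0.1 where the RPKM averaged at least 1. Intervals are exact (Clopper-Pearson for ratios, Poisson for levels) at 95% and cover counting error only. A count model could not be fitted with 1 library per group, so differences were described by 1.5-fold and 2-fold rules. Python 3.11.15, pandas 2.3.3 and scipy 1.17.1 were used, and the ratio code was tested on simulated data. The text names all 10 members, up to 4 genes of largest absolute ratio per list, and the 5 nearest profiles for Ptth and EcR. Outside that rule, gce, Hsc70-4, Tig and genes under the level filter were named after their values were seen. So were the overlapping or neighbouring genes Actn, CG4313, Mur2B, cold and Ipk2. The members and lists were chosen with earlier results of these data known. Promoter motifs were not analysed here.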

Additional observations from a re-analysis of the deposited data

How the results depend on the processing

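No paired analysis was possible because each group had 1 mRNA library, and for the same reason no library could be left out. Under the 2-fold rule, the number of ecdysone genes lower after CLAMP RNAi was 0 in place of 1, and the number lower in MSL2 RNAi against CLAMP RNAi was 0 in place of 1, since br and Eip74EF lie between 1.5-fold and 2-fold. The other settings were pseudocounts of 0.01 and 1, the level filter dropped or set at a mean of 5 RPKM, the longest transcript for each gene, an autosomal median set to 0 and upper-quartile scaling. Under them the counts of ecdysone genes past 1.5-fold did not move. Of the recomputed log2 ratios of single ecdysone genes, 173 stayed within their counting intervals and 13 moved outside. With the autosomal median at 0, usp after CLAMP RNAi went from 0.05 to 0.11, ftz-f1 from −0.11 to −0.05 and Eip75B from −0.08 to −0.02. No called log2 ratio changed sign, and among the others Eip75B between the knockdown libraries went from 0.02 to −0.06 with the autosomal median at 0. The ratio of br after CLAMP RNAi ranged from −0.73 to −0.63 over these settings, and that of Ptth after MSL2 RNAi from 1.36 to 1.56. The longest transcript moved Eip74EF to 0.53 after CLAMP RNAi and −0.24 after MSL2 RNAi. Counts over the pathway lists were recomputed only with a pseudocount of 1, the filter of 5 RPKM and the 2-fold rule. Of these 72, 9 moved: 5 under the 2-fold rule and 4 under the filter, where Cyp18a1 and W drop out. Depth limits Hr46 (4 to 8 reads) and leaves Ptth on 174 reads in control. The counting intervals leave out differences between cultures.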
